A study of Rattus norvegicus with 9 samples.

Results

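Gene expression was compared directly between HEI-OC1 cells given cisplatin and HEI-OC1 cells given neomycin, with neomycin rather than untreated cells as the reference. The comparison used 6 of the 9 RNA sequencing libraries of the study, 3 from cells given cisplatin and 3 from cells given neomycin, each for 24 h. The other 3 libraries, from cells given phosphate-buffered saline (PBS), entered no fold change reported here. For some genes their levels are given beside those of both drugs. HEI-OC1 is an immortalized mouse line from the organ of Corti that carries a temperature-sensitive large T antigen, a viral protein that binds p53. Sample labels number the line differently from one library to the next (HEI-OC1, HEI-OC2 and so on), and all are treated here as 1 line. The labels describe it as a hair cell-like line, give rat as the organism, give no drug dose and name no other treatment or allele in any group.

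Cisplatin is a platinum drug whose DNA adducts and crosslinks stall replication and transcription. Neomycin is an aminoglycoside antibiotic that binds ribosomal RNA, enters sensory hair cells through their transduction channels and by endocytosis, and collects in their lysosomes. Both drugs destroy the outer hair cells of the cochlea and so cause permanent hearing loss, and the comparison asks in which transcripts the response to one differs from the response to the other.

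The measured quantity was FPKM, fragments per kilobase of gene model scaled to a total of fragments of the library. The totals recovered from the values were 27516629 to 34249663 reads in the neomycin libraries and 33109128 to 40221089 reads in the cisplatin libraries. The deposited genes held 99.955% to 99.975% of these totals, so the totals are close to reads counted on genes. At these totals 3 reads on a gene of 1 kb correspond to 0.0746 to 0.109 FPKM. On log2(FPKM + 1) the drugs separated along a first principal component with 95.9% of the variance, and no 2 libraries were copies of each other, since replicate pairs gave chi-square values of 4.4 to 9.52 times their degrees of freedom. Most listed hair cell genes were low in both groups. Only 5 of the 19 listed hair cell genes reached a mean of 1 FPKM, and the 19 summed to 25.5 to 26.7 FPKM with neomycin and 12.8 to 14.8 FPKM with cisplatin. The hair cell transcription factor Pou4f3 had group means of 0.00 FPKM with neomycin and 0.02 FPKM with cisplatin. The hair bundle gene Cdh23, the synaptic gene Otof and the transporter gene Slc17a8 were at 0.00 FPKM in both groups. These near-zero genes were chosen after their values were seen. The unconventional myosin Myo6, which hair cells need and many other cells express, was at 13.7, 15.4 and 15.7 FPKM with neomycin and at 7.32, 7.52 and 6.65 FPKM with cisplatin. Myo7a had means of 2.54 and 1.33 FPKM with neomycin and cisplatin, Cib2 of 3.12 and 1.39 FPKM, and Whrn of 3.46 and 2.17 FPKM. Their PBS means were 0.88, 1.82 and 2.91 FPKM. Myo7a, Cib2 and Whrn, like Myo6, were called lower with cisplatin.

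Most of the transcriptome differed between the drugs. Of the 10543 genes that averaged 1 FPKM or more over the 6 libraries, 8667 (82.2%) were called by limma at an adjusted p below 0.05, 4797 of them (45.5%) higher and 3870 (36.7%) lower with cisplatin. A called difference had a median size of 0.53 on the log2(FPKM + 1) scale, and the median standard error of a gene was 0.06. At least 2-fold differences numbered 802 higher (7.61%) and 616 lower (5.84%), and at least 4-fold differences 76 higher and 44 lower. The 3 cisplatin and 3 neomycin libraries did not overlap in 8783 tested genes (83.3%). At the other end, 1697 genes (16.1%) had a 95% interval that lay wholly within a 1.2-fold difference either way, and 272 of these were called. The cell cycle genes Ccnd1 (log2 difference -0.05, adjusted p = 0.362) and Ccnb1 (-0.01, adjusted p = 0.78) and the stress gene Trib3 (0.12, adjusted p = 0.185) were not called, and their libraries overlapped. Ccnd1 and Trib3 nevertheless stood away from untreated cells under both drugs. Ccnd1 had means of 54.0 and 52.3 FPKM with neomycin and cisplatin against 24.4 FPKM with PBS. Trib3 had 56.6 and 61.3 FPKM against 189 FPKM. Psmb3, a proteasome subunit gene, was at 117, 118 and 119 FPKM with neomycin and at 120, 121 and 122 FPKM with cisplatin. Its log2 difference of 0.03 was not called (adjusted p = 0.431), was -0.12 after equal scaling of the library sums, and was -0.21 after quantile normalization.

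The direction of small differences depended on the scaling. The FPKM values of a library summed to between 455321 and 471278 with neomycin and between 510881 and 520551 with cisplatin. As deposited, the median gene was 0.07 higher with cisplatin and 55.3% of calls were higher. With the library sums scaled to be equal the median fell by 0.14 to -0.07, and the calls became 3918 higher and 4741 lower, or 45.2% higher. Differences near 0.1 in size, list medians included, therefore have no settled sign. Some larger list medians also fell to near 0 when a trend with gene model length was removed, as described last.

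**Figure D1:**
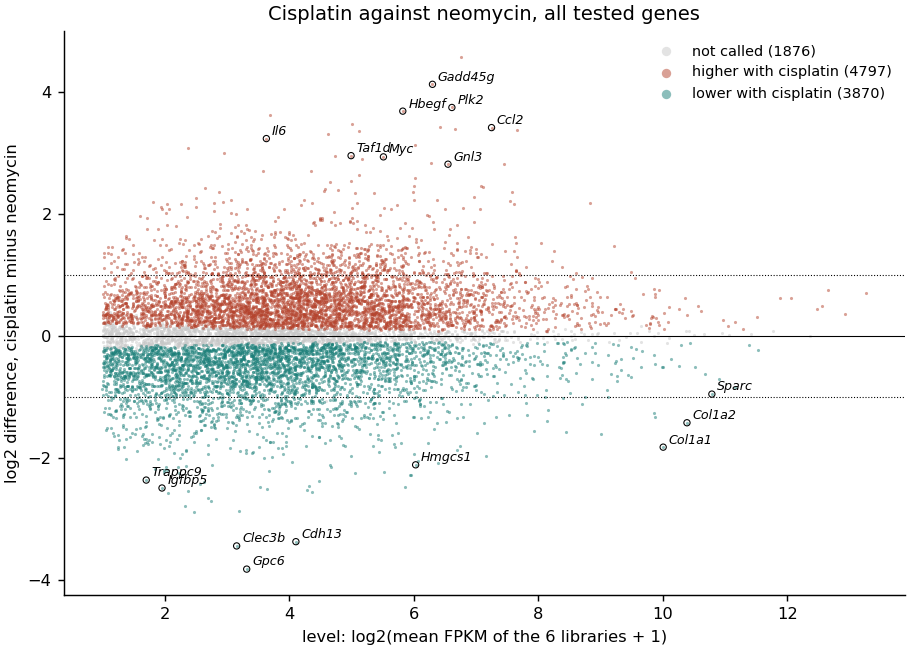
Each point is 1 of the 10543 tested genes, with its level over the 6 libraries on the x axis, as log2(mean FPKM + 1), and its log2 difference, cisplatin minus neomycin, on the y axis. Dotted lines mark 2-fold differences: 802 called genes lie at or above the upper line and 616 at or below the lower one, and the named genes are ringed.

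Growth arrest and early response genes led the genes that were higher with cisplatin. Gadd45g, a stress sensor that binds stress kinase regulators, was at 7.98, 7.69 and 6.89 FPKM with neomycin and at 144, 145 and 156 FPKM with cisplatin, a log2 difference of 4.13 ± 0.06 (SE, limma adjusted p = 6.6e-14). Plk2, a polo-like kinase and p53 target, was at 13.4, 13.1 and 11.1 FPKM against 185, 178 and 180 FPKM, a log2 difference of 3.75 ± 0.06 (adjusted p = 1.9e-13). Both drugs' libraries stood far apart for these genes, and the PBS means of 11.7 and 31.0 FPKM lay between them but close to neomycin. Hbegf, a ligand of the EGF receptor, was at 7.84, 6.64 and 7.11 FPKM with neomycin and at 105, 105 and 103 FPKM with cisplatin (log2 difference 3.69 ± 0.05, adjusted p = 1.3e-13). The vasoconstrictor peptide gene Edn1 was at 0.94 ± 0.20 FPKM with neomycin and 22.9 ± 1.58 FPKM with cisplatin (mean ± SD, n = 3), and Pvr, an adhesion receptor that immune cells recognise, at 16.6 ± 0.62 and 184 ± 4.83 FPKM. The predicted gene LOC102547700, which the naming rule left out and which was chosen after its values were seen, exceeded all of these with means of 7.68 and 206 FPKM (log2 difference 4.58).

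Every tested immediate early transcription factor of the list was higher with cisplatin. These are genes that growth factors and stress switch on without new protein synthesis. All 21 tested of 26 in the table were called higher, 18 at least 2-fold, with a median log2 difference of 1.78 against 0.07 over all tested genes. Fos, a subunit of the AP-1 factor, was at 5.54, 6.31 and 3.73 FPKM with neomycin and at 46.6, 47.7 and 43.7 FPKM with cisplatin (log2 difference 2.95 ± 0.12, limma adjusted p = 2.5e-10). Egr1, a zinc finger factor, was at 46.7, 54.0 and 27.9 FPKM against 212, 210 and 194 FPKM (2.28 ± 0.17, adjusted p = 4.9e-08). Neomycin replicate 3 was the lowest library for both genes, and no neomycin library came near a cisplatin one. Maff, a small Maf protein, had means of 12.2 ± 0.64 and 115 ± 8.35 FPKM, and Klf10, a repressor induced by TGF-beta, of 7.47 ± 0.25 and 62.8 ± 1.78 FPKM. Of 9 tested genes for mRNA decay factors and antiproliferative proteins of the same early class, 8 were called higher and 0 lower, among them Btg2 (log2 difference 2.19) and Zfp36 (1.93), which binds and destabilizes cytokine mRNAs. Among 16 tested MAP kinase feedback genes 12 were higher, led by the phosphatase Dusp8 (means of 1.96 and 7.99 FPKM), and 3 were lower, with Spred2 at -0.54.

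Chemokine, cytokine and NF-kB genes formed a second group on the cisplatin side. Ccl2, which attracts monocytes, was at 22.5, 26.1 and 26.3 FPKM with neomycin and at 265, 274 and 294 FPKM with cisplatin (log2 difference 3.42 ± 0.06, limma adjusted p = 4.3e-13). The cytokine gene Il6 had means of 1.39 ± 0.36 and 21.4 ± 2.04 FPKM (SD, n = 3; log2 difference 3.24), and Ptgs2, the inducible prostaglandin synthase, at 5.22, 5.15 and 5.18 FPKM against 63.7, 63.5 and 60.0 FPKM (3.36 ± 0.05). The neutrophil chemokine gene Cxcl2 was near silent with neomycin, at 0.19, 0.03 and 0.03 FPKM, and reached 8.23, 8.61 and 7.84 FPKM with cisplatin. All 3 cisplatin libraries exceeded all neomycin and all PBS libraries in these 4 genes. Its neighbour in function Cxcl1 behaved otherwise: neomycin had 153, 125 and 131 FPKM, cisplatin 226, 233 and 237 FPKM, and PBS 366, 383 and 410 FPKM, so that the PBS libraries were the highest. Of 15 tested chemokine and cytokine genes 13 were called higher, 10 at least 2-fold, and 2 lower, Cxcl12 (log2 difference -0.67) and Cxcl16 (-0.21). Of 16 tested NF-kB subunit and feedback genes 15 were higher and 1 was lower. Tnfaip3, which removes ubiquitin chains that NF-kB signalling needs, was at 6.88, 6.67 and 6.23 FPKM with neomycin and 39.6, 37.6 and 38.7 FPKM with cisplatin (2.38 ± 0.05). The exception was Tnip1, a partner of Tnfaip3, at 85.1 ± 4.82 and 72.8 ± 2.67 FPKM (-0.22, adjusted p = 0.00107). Only 2 of the 8 listed macrophage markers reached 1 FPKM, and their summed level was 8.90 to 9.28 FPKM with neomycin and 8.09 to 9.80 FPKM with cisplatin.

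**Figure D2:**
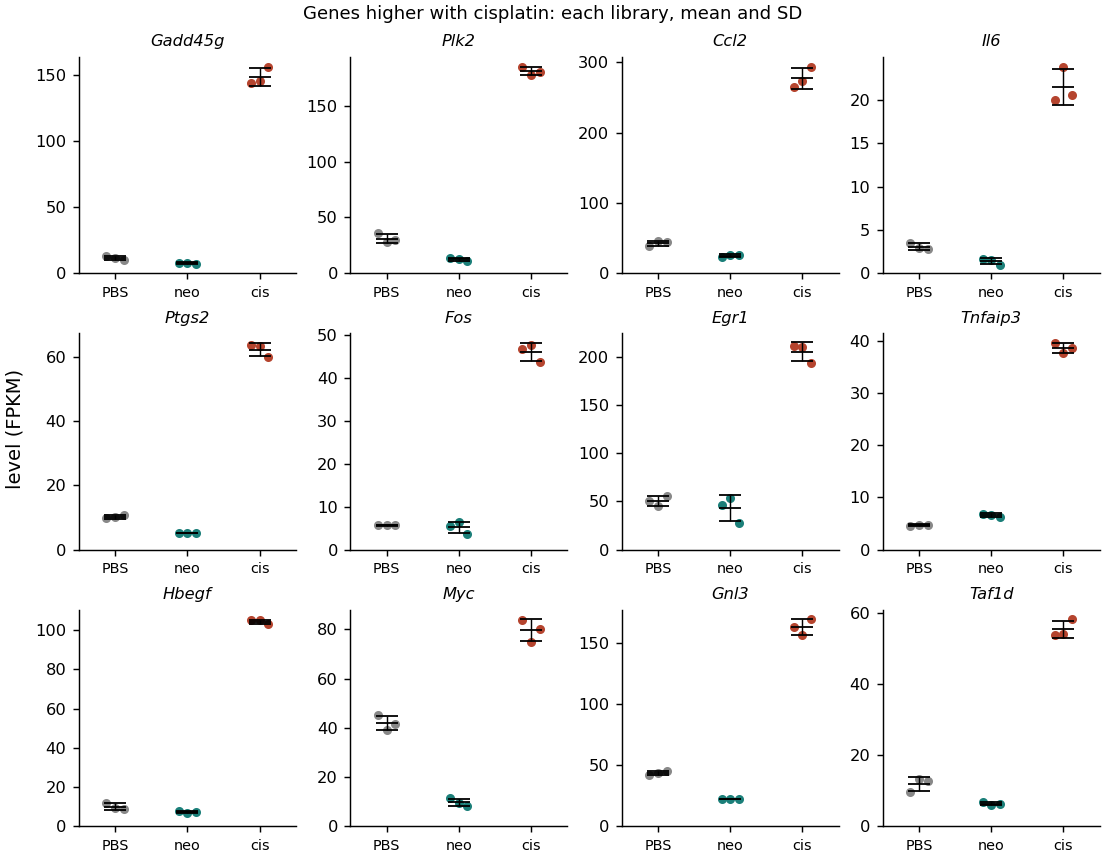
Level in FPKM, on a linear axis from 0, of 12 genes that were higher with cisplatin, in each PBS, neomycin (neo) and cisplatin (cis) library. Points are libraries and bars the mean with its SD (n = 3), and in every panel the 3 cisplatin points lie above the 3 neomycin points.

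Some promoters of these genes hold a motif known for their class, and the stretches below are shown because the early response and NF-kB genes moved together. They are rat sequences from RefSeq (GRCr8), upstream of the annotated start and written 5′ to 3′ on the gene's strand, whereas the line is of mouse origin. Capitals mark CArG boxes, the element of serum response factor, in Srf (chr9:21923955-21924064, plus strand) and Egr2 (chr20:21054475-21054564, minus strand). They mark kB sites in Cxcl1 (chr14:17479355-17479445), Cxcl2 (chr14:17467279-17467369), Nfkbia (chr6:78597073-78597143) and Tnfaip3 (chr1:15543985-15544074), all on the minus strand. Srf (log2 difference 1.00), Nfkbia (0.82) and Egr2 (2.71), like the others, were called higher with cisplatin, and Srf and Nfkbia were chosen for their promoters after their values were seen.
Srf: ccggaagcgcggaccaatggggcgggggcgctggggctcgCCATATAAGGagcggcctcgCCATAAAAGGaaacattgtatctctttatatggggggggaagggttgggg
Egr2: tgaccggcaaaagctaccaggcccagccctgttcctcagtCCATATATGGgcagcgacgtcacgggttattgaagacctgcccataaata
Cxcl1: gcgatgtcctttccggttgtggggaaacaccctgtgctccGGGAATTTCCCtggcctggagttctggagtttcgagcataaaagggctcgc
Cxcl2: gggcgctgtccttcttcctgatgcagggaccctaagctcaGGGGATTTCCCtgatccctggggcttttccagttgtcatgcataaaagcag
Nfkbia: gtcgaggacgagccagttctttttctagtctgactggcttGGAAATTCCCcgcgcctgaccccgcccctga
Tnfaip3: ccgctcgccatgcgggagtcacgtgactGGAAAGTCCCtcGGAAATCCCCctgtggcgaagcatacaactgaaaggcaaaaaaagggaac
Motifs were counted over windows of 300 bases, 250 before and 50 after the start, with both strands searched. A kB site stood in 64.3% of 14 promoters of NF-kB list genes and in 60% of 10 chemokine promoters. The share was 9.76% of the 8788 promoters of tested genes and 7.6% of all 27457 promoters. A CArG box stood in 26.7% of 15 early transcription factor promoters, against 1.31% of tested promoters and 1.64% of all. The lists were chosen with earlier results of these data known, so their shares are a description and not a test. Over all called genes at least 2-fold higher with cisplatin (685 with a promoter), the kB site stood in 10.1%. It stood in 10.6% of the 470 promoters of genes at least 2-fold lower and in 9.76% of the 8788 promoters of tested genes. The CArG box stood in 2.04%, 1.7% and 1.31% of the same sets. The AP-1 site stood in 0 of 15 early transcription factor promoters and the sterol element in 0 of 19 promoters of cholesterol genes. The cyclic AMP element TGACGTCA stood in 7.88% of the higher set, 1.28% of the 470 promoters of the lower set and 3.44% of tested promoters. The E-box CACGTG stood in 16.2%, 7.87% and 10% of the same sets. The AP-1 site TGACTCA stood in 3.07%, 3.4% and 3.22%, the ATF4 element TGATGNAA in 2.04%, 1.28% and 1.99%, and the sterol element TCACNCCAC in 1.17%, 1.28% and 1.04%. None of these motifs contains another, and a match describes letters in a window, not a bound site.

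Genes of the DNA damage response were split. Cdkn1a, the p53 target that blocks cyclin-dependent kinases, was at 8.77, 7.96 and 9.34 FPKM with neomycin and at 35.6, 35.8 and 35.0 FPKM with cisplatin (log2 difference 1.91 ± 0.06, limma adjusted p = 2e-11). The ubiquitin ligase gene Mdm2 (1.22) and the BH3-only gene Pmaip1 (1.97) were also higher. PBS lay between the drugs for Cdkn1a, with 17.5, 15.9 and 18.4 FPKM, so cisplatin libraries were above and neomycin libraries below untreated cells. Of 27 tested p53 targets 16 (59.3%, beside 45.5% of all tested genes) were called higher and 8 lower. Sesn1, a stress-induced inhibitor of growth signalling, was at 10.1, 9.60 and 11.4 FPKM with neomycin and at 3.89, 3.85 and 2.86 FPKM with cisplatin (-1.33 ± 0.09), and Tp53inp1 was lower as well (-1.06). Bbc3, another BH3-only gene and chosen after its values were seen, was not called, with means of 4.28 and 4.25 FPKM. Gadd45b (2.84) and Gadd45a (0.88) were higher, although for Gadd45a the cisplatin mean of 257 FPKM lay below the PBS mean of 278 FPKM and neomycin was at 140 FPKM. Among 21 tested pro-apoptotic genes 12 (57.1%) were higher and 7 (33.3%) lower, beside 45.5% and 36.7% of all tested genes, with 8 higher and 8 lower after quantile normalization.

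Replication genes were mostly higher with cisplatin, and repair genes divided. Of 52 tested replication genes 38 were called higher, 14 at least 2-fold, and 7 lower. Pcna, the sliding clamp of DNA polymerases, was at 279, 275 and 287 FPKM with neomycin and at 549, 530 and 571 FPKM with cisplatin (log2 difference 0.97 ± 0.04), and Cdt1, which loads the replicative helicase, at 63.0 ± 3.07 and 176 ± 5.12 FPKM (1.46). Gins1 (-0.54) and the ribonucleotide reductase subunit Rrm1 (-0.36) were lower. Of 37 tested crosslink and recombination repair genes 16 were higher, 8 lower and the remaining 13 not called, shares of 43.2% and 21.6% that lie near or below those of all tested genes. The median of 0.01 was -0.12 after equal scaling of the library sums, 0.1 after quantile normalization and 0.26 with the length trend removed. Of 20 tested nucleotide excision repair genes 10 (50%) were higher and 3 (15%) lower, beside 45.5% and 36.7% of all tested genes. After equal scaling of the library sums 8 were higher and 6 lower. Fancb (1.38) and Ube2t (1.09) of the Fanconi anaemia pathway were higher. Brca2 (-0.77), a mediator of recombination, and Atm (-0.73), the kinase that senses breaks, were lower. Of 43 tested mitosis genes 25 (58.1%) were higher and 11 (25.6%) lower, beside 45.5% and 36.7% of all tested genes. After equal scaling of the library sums, however, 16 were higher and 17 lower. Within that list Aurkb had 67.0 ± 2.86 FPKM with neomycin and 129 ± 3.14 FPKM with cisplatin, while the kinetochore gene Cenpf had 24.6, 26.8 and 25.6 FPKM against 5.26, 5.39 and 5.35 FPKM (-2.07 ± 0.05). The proliferation marker Mki67 was also lower with cisplatin (76.7 ± 3.74 and 45.0 ± 2.77 FPKM), above the PBS range of 28.6 to 34.4 FPKM in both groups.

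Genes that build ribosomes in the nucleolus were higher with cisplatin without exception. All 50 tested members were called higher, 29 of them at least 2-fold, with a median log2 difference of 1.07. Gnl3, the nucleolar GTPase nucleostemin, was at 22.0, 22.5 and 22.1 FPKM with neomycin and at 163, 157 and 170 FPKM with cisplatin (2.82 ± 0.04, limma adjusted p = 1.5e-13). Taf1d, part of the factor that selects the ribosomal RNA promoter, had 6.74, 5.85 and 6.16 FPKM against 53.9, 54.0 and 58.3 FPKM (2.96 ± 0.06), and Nop56, a core protein of box C/D particles, 50.2 ± 2.92 against 216 ± 4.88 FPKM (2.08). After equal scaling of the library sums 48 of the 50 were called higher and 0 lower. Myc, which activates this programme, was at 11.2, 9.22 and 8.28 FPKM with neomycin, 83.9, 75.0 and 80.1 FPKM with cisplatin and 45.0, 39.0 and 41.6 FPKM with PBS (2.94 ± 0.08). Neomycin was thus below and cisplatin above untreated cells for Myc, as it was for Gnl3 (PBS mean 43.5 FPKM). Mxd4, an antagonist that competes with Myc for its partner, moved the other way, from 53.6 ± 1.77 FPKM with neomycin to 10.6 ± 0.30 FPKM with cisplatin (-2.24). An E-box stood in 36.2% of 47 promoters of the nucleolar list, beside 10% of the 8788 promoters of tested genes. The share was also above 10% in lists of either direction. It was 26.7% of 15 promoters of early transcription factors, and 25.9% of 27 promoters of lysosomal proteins, a list mostly lower with cisplatin. Any part of Myc in these differences was not tested. In the Gnl3 promoter below, capitals mark the E-box (rat, GRCr8, chr16:6219783-6219847, minus strand).
Gnl3: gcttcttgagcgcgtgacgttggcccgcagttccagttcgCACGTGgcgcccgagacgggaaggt

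Ribosomal, mitochondrial and proteasome subunits were higher by smaller steps. Of 75 tested mitochondrial ribosomal proteins 62 were called higher, 12 at least 2-fold, and 4 lower, with Mrpl38 at 19.0, 19.0 and 17.4 FPKM with neomycin and 84.6, 86.1 and 84.7 FPKM with cisplatin (log2 difference 2.15). Of 81 nuclear respiratory chain subunits 58 were higher and 12 lower, of 37 proteasome subunits 28 and 5, and of 88 cytosolic ribosomal proteins 59 and 13, with list medians of 0.38, 0.44 and 0.31. Cytosolic ribosomal protein genes have many processed copies, so reads between copies may be split and single members such as Rpl30l2 are uncertain. Mitochondrially encoded COX2 held the largest rise in share of the summed FPKM, at 7570, 7751 and 7183 FPKM with neomycin and 12088, 12058 and 12514 FPKM with cisplatin (0.70 ± 0.05), and PBS was at 11815, 12286 and 12813 FPKM. The cisplatin and PBS libraries overlapped in COX2, and neomycin stood below both. ND6, the 1 member of 13 that was lower (-0.91), lies on the opposite strand from the other mitochondrial protein genes, and whether counting used strand is unknown here, so its reads may belong to its antisense partner. The respiratory, mitochondrial ribosomal and cytosolic ribosomal gene models are short, with medians of 752, 1151 and 706 bases against 3145 over all tested genes, which bears on the length pattern described last.

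Extracellular matrix genes were lower with cisplatin, and collagen chains had the lowest median of the lists with at least 9 tested members. Of 17 tested collagen chains 16 were called lower, 14 at least 2-fold, and 0 higher, with a median log2 difference of -1.46. Col1a1 was at 1574, 1629 and 1595 FPKM with neomycin and at 467, 462 and 427 FPKM with cisplatin (-1.82 ± 0.05, limma adjusted p = 6.2e-12), and Col1a2 at 1943, 1938 and 1954 FPKM against 749, 769 and 671 FPKM (-1.42 ± 0.05). Both chains of type I collagen were highest in PBS, at 1936 to 2072 and 2306 to 2554 FPKM. Col12a1 had 102 ± 5.05 and 20.2 ± 0.61 FPKM (-2.28), with PBS at 58.0 to 60.0 FPKM, between the drugs. Of 23 tested matrix glycoproteins 21 were lower, 13 at least 2-fold, among them Tnn (-2.15), Fbln1 (-1.74) and Fbln5 (-1.62). Thbs1, thrombospondin 1, was the 1 that was higher, at 66.7, 72.5 and 66.9 FPKM with neomycin and 191, 188 and 180 FPKM with cisplatin (1.43 ± 0.04). Sparc, a collagen-binding protein, had 2328 ± 27.6 and 1202 ± 51.3 FPKM, and the collagenase Mmp13 had 90.9, 93.2 and 108 FPKM against 15.8, 19.6 and 14.8 FPKM (-2.48 ± 0.09). Fibroblast markers, a list that shares its collagens with this group, summed to 5776 to 5830 FPKM with neomycin, 2997 to 3186 FPKM with cisplatin and 6219 to 6711 FPKM with PBS. All but 1 of its 10 tested members were called lower, and S100a4 was not called (1599 and 1628 FPKM). Fewer cells of a type and less RNA per cell cannot be told apart in bulk samples, and the part of cell composition in the matrix result was not tested.

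Among genes of the cell surface, most tested receptor phosphatases and cadherins and the proteoglycan Gpc6 were lower with cisplatin, while others such as Pvr were higher. Gpc6, a heparan sulfate proteoglycan, was at 16.1, 18.7 and 18.0 FPKM with neomycin and at 0.38, 0.23 and 0.34 FPKM with cisplatin (log2 difference -3.82 ± 0.07, limma adjusted p = 7.4e-13). The cadherin Cdh13 was at 30.6, 30.5 and 30.1 FPKM against 2.15, 2.15 and 1.83 FPKM (-3.37 ± 0.06), and the receptor phosphatase Ptprg at 9.28, 10.3 and 11.1 FPKM against 0.64, 0.89 and 0.84 FPKM (-2.65 ± 0.08). For Gpc6 and Ptprg the PBS libraries overlapped with those of neomycin, at 16.2 to 19.5 and 9.95 to 10.6 FPKM. Of 12 tested receptor phosphatases and cadherins 10 were called lower, 8 at least 2-fold, and 2 higher, Ptprn (0.57) and Cdh24 (0.43). Igfbp5, which binds insulin-like growth factors, was at 5.59 ± 0.26 and 0.17 ± 0.02 FPKM (-2.49), and of 10 tested genes of that system 7 were lower and 2 higher. Of 6 tested glypicans and syndecans 3 (50%) were lower and 2 (33.3%) higher, beside 36.7% and 45.5% of all tested genes, with the syndecan Sdc4 at 0.76. Zbtb20, a transcriptional repressor, had 10.6 ± 0.91 FPKM with neomycin against 0.76 ± 0.02 with cisplatin, and the water channel Aqp1 32.3 ± 2.21 against 4.80 ± 0.63 FPKM, both with PBS between the drugs. CCN proteins and YAP targets went partly the other way, with Ccn2 at 43.3, 42.6 and 39.9 FPKM against 318, 301 and 293 FPKM (2.83 ± 0.05) and Ccn5 lower (-0.96). Of 18 tested members of that list 9 (50%) were higher and 6 (33.3%) lower, beside 45.5% and 36.7% of all tested genes. After equal scaling of the library sums 9 were higher and 8 lower.

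**Figure D3:**
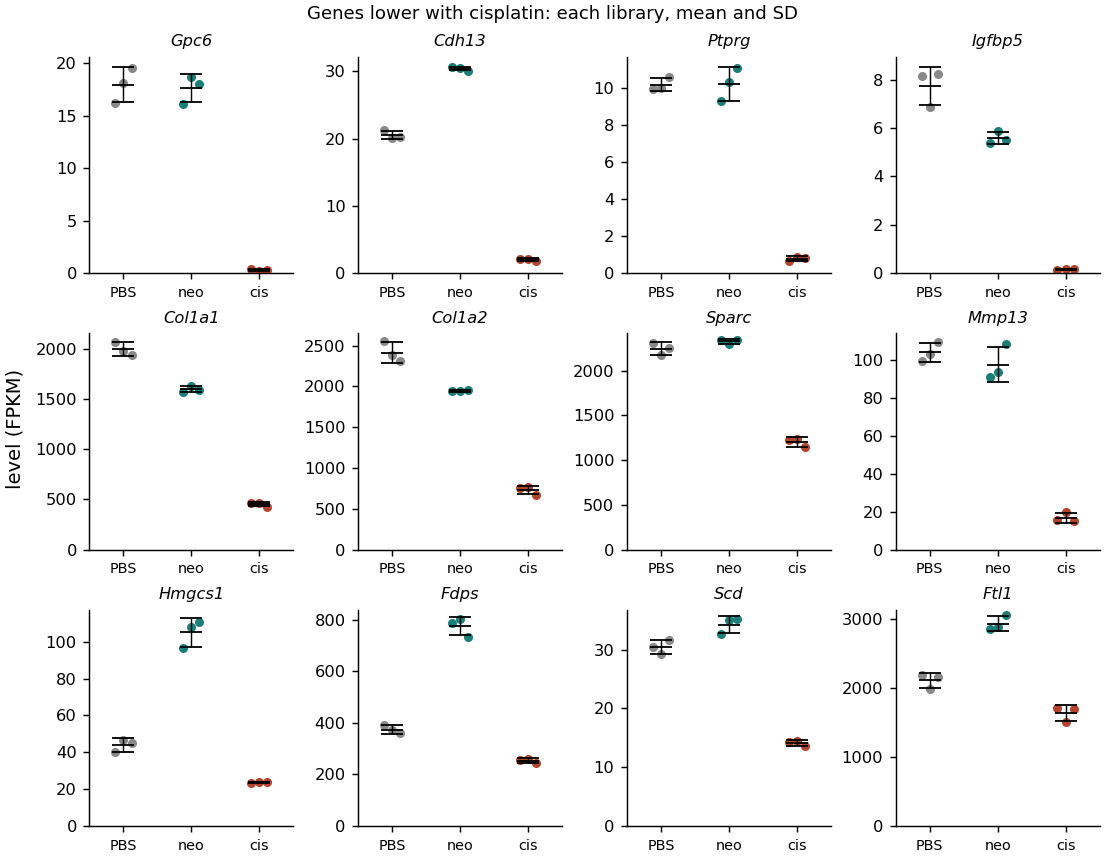
Level in FPKM, on a linear axis from 0, of 12 genes that were lower with cisplatin, drawn as for the genes that were higher. The neomycin points lie above the cisplatin points in every panel, with Hmgcs1 highest with neomycin and Col1a2 highest with PBS.

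Sterol and fatty acid synthesis genes were lower with cisplatin and, for several, highest with neomycin. Of 26 tested cholesterol genes 25 were called lower, 11 at least 2-fold, and 1 higher, with a median log2 difference of -0.86. Hmgcs1, which makes the precursor of mevalonate, was at 96.4, 108 and 111 FPKM with neomycin, 23.1, 23.8 and 23.9 FPKM with cisplatin and 39.9, 46.7 and 45.2 FPKM with PBS (-2.11 ± 0.05, limma adjusted p = 6.2e-12). Fdps, farnesyl diphosphate synthase, was at 785, 802 and 734 FPKM with neomycin, 257, 259 and 242 FPKM with cisplatin and 391, 370 and 359 FPKM with PBS (-1.61 ± 0.05). In both genes no library of one group overlapped with another group, and PBS lay between the drugs. Dhcr7 (-1.78), which finishes the sterol ring, showed the same order. Idi1, an isomerase of the same pathway, was the 1 that was higher, with 36.6 ± 3.46 and 65.7 ± 1.91 FPKM (0.83). Of 16 tested fatty acid genes 13 were lower and 2 higher, with the desaturase Scd2 at 523 ± 18.2 and 175 ± 5.67 FPKM (-1.57).

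Lysosomal and antioxidant genes, relevant to where neomycin collects and to oxidative stress, leaned to the neomycin side. Of 39 tested lysosomal proteins 32 were called lower with cisplatin and 4 higher, and 6 were at least 2-fold lower. Gaa, which degrades glycogen in lysosomes, was at 164, 164 and 167 FPKM with neomycin, 47.0, 49.6 and 44.2 FPKM with cisplatin and 108 to 117 FPKM with PBS (log2 difference -1.80 ± 0.05). Psap, the saposin precursor, had 567 ± 7.20 and 262 ± 13.3 FPKM (-1.11), while the sialidase Neu1 was higher (0.98). Subunits of the proton pump that acidifies lysosomes divided, 10 higher (55.6%) and 7 lower (38.9%) of 18, beside 45.5% and 36.7% of all tested genes. After equal scaling of the library sums 7 were higher and 8 lower. Of 34 tested NRF2, glutathione and antioxidant genes 19 (55.9%) were lower and 12 (35.3%) higher, beside 36.7% and 45.5% of all tested genes. Gclc, the rate-limiting enzyme of glutathione synthesis, had 117, 120 and 123 FPKM with neomycin and 46.0, 42.7 and 43.6 FPKM with cisplatin (-1.42 ± 0.04), with PBS at 146 to 151 FPKM above both. Sod2, the mitochondrial superoxide dismutase, went the other way, at 185, 171 and 174 FPKM against 416, 415 and 420 FPKM (1.24 ± 0.04), as did Gpx1 (1.22). Ferritin light chain Ftl1 lost the most share of the summed FPKM, with 2932 ± 110 FPKM under neomycin and 1638 ± 112 FPKM under cisplatin.

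Genes of the integrated stress response and of protein folding had no single direction. Atf4, the factor of the integrated stress response, had 244 ± 13.4 FPKM with neomycin and 483 ± 16.6 FPKM with cisplatin (log2 difference 0.98). Its target Ddit3 had 85.8, 73.2 and 75.4 FPKM against 221, 226 and 225 FPKM (1.51 ± 0.05). The PBS means of 359 FPKM for Atf4 and 166 FPKM for Ddit3 lay between the drugs. Ddit4 (-1.10) and the mitochondrial folate enzyme gene Aldh1l2 (-0.95) of the same list were lower. Of 33 tested members 19 (57.6%) were higher and 9 (27.3%) lower, beside 45.5% and 36.7% of all tested genes. Their median was 0.15, and 16 were higher and 12 lower after equal scaling of the library sums. Of 28 tested endoplasmic reticulum genes 10 (35.7%) were higher and 12 (42.9%) lower, beside 45.5% and 36.7% of all tested genes, with Manf at 0.81 and Sel1l at -0.92. After equal scaling of the library sums 6 were higher and 15 lower. Among heat shock proteins 12 of 17 (70.6%) were higher and 3 (17.6%) lower. Mitochondrial Hspa9 was at 167 ± 6.15 and 326 ± 3.98 FPKM, both below the PBS mean of 380 FPKM. Cytosolic Hspa8 was at 739 ± 15.4 and 369 ± 9.22 FPKM, with a PBS mean of 453 FPKM between them. Genes that handle the drugs themselves were also mixed, 5 higher (35.7%) and 9 lower (64.3%) of 14, beside 45.5% and 36.7% of all tested genes. The efflux pump Abcb1b was at 8.08, 9.30 and 8.05 FPKM with neomycin and 29.6, 27.6 and 29.4 FPKM with cisplatin (1.66 ± 0.06), the copper exporter Atp7a, which also carries platinum, was lower (-0.77), and megalin, Lrp2, an uptake receptor for aminoglycosides, had 20.3 ± 0.40 and 10.7 ± 0.83 FPKM (-0.87).

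**Figure D4:**
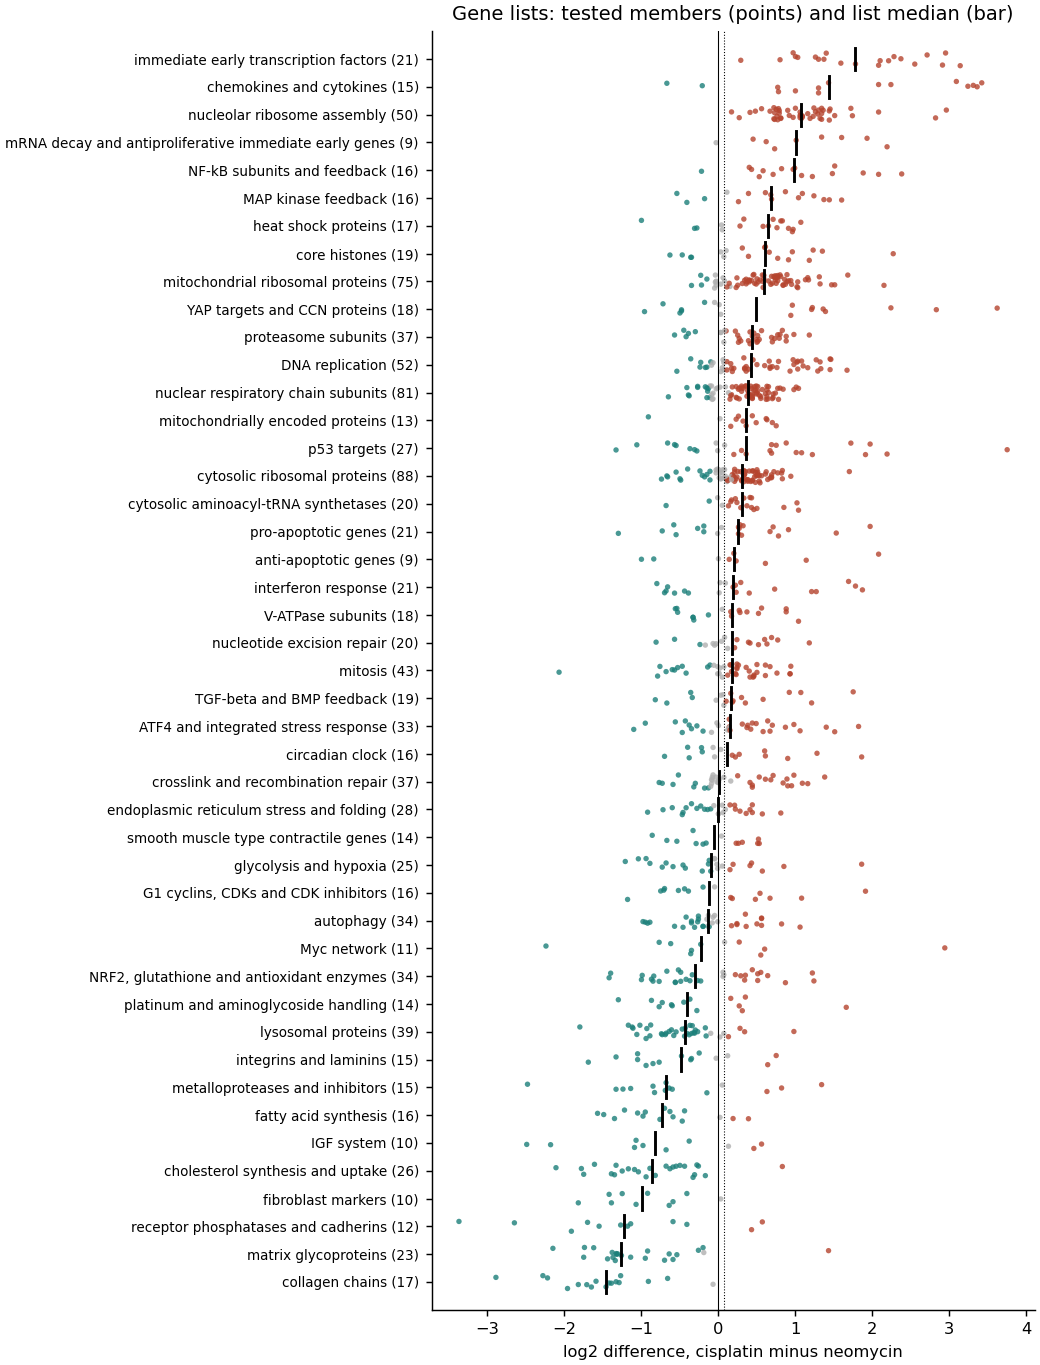
Log2 difference, cisplatin minus neomycin, of the tested members of each list with at least 9 tested members (number in brackets), with called members in red (higher) or green (lower) and the others in grey. The black bar is the list median, the solid line 0 and the dotted line the median of all tested genes at 0.07, and medians run from -1.46 for collagen chains to 1.78 for immediate early transcription factors.

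A few genes were expressed under one drug and near silent under the other. Every neomycin library had at least 1 FPKM and every cisplatin library at most 0.1 FPKM for 9 genes, and the reverse held for 4. Trappc9, a vesicle tethering factor, was at 4.46, 4.34 and 4.54 FPKM with neomycin and at 0.08, 0.05 and 0.07 FPKM with cisplatin. Tenm4, a teneurin adhesion protein, was at 3.15, 3.30 and 3.10 FPKM against 0.03, 0.05 and 0.03 FPKM, and the polarity gene Pard3b at 2.52, 2.84 and 2.80 FPKM against 0.02, 0.02 and 0.05 FPKM. PBS resembled neomycin for Trappc9 and Pard3b, at 4.35 to 4.69 and 2.58 to 2.78 FPKM, and exceeded it for Tenm4. Tmem100, Ptprm, Magi1, Sh3rf2, Sned1 and Rbms3 were the others. The reverse group held Pip5kl1, Ceacam19, Exd1 and the predicted gene LOC102552550, with Ceacam19 at 0.00, 0.00 and 0.03 FPKM with neomycin and 1.34, 1.57 and 1.78 FPKM with cisplatin. The count of 4 was 8 without cisplatin replicate 2 or without neomycin replicate 1, and 7 without neomycin replicate 2 or 3.

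The difference between the drugs also followed the length of the gene model. Genes with models of up to 1 kb had a median log2 difference of 0.31 (782 genes), and the median fell through 0.26, 0.15, 0.06 and -0.11 to -0.36 for 1039 genes over 8 kb. In the shortest class 59.2% were called higher and 18.7% lower, and in the longest 19% and 63.5%. The mean model length per read was 4081 to 4209 bases with neomycin, 3911 to 4003 bases with PBS and 3527 to 3586 bases with cisplatin, so the groups did not overlap. The lists described above differ in median length, with 706 bases for cytosolic ribosomal proteins and 5826 bases for collagen chains. When the trend with length was subtracted, an alternative chosen after seeing the data, cytosolic ribosomal proteins had 31 members higher and 33 lower (median -0.01) and respiratory chain subunits 40 higher and 26 lower. Mitochondrially encoded proteins had 6 higher and 4 lower (median 0.07), beside 11 higher and 1 lower as deposited (median 0.36). Under the same alternative the nucleolar list had 50 higher and 0 lower, the early transcription factors 21 and 0, collagen chains 0 and 16 and cholesterol genes 1 and 25. RNA integrity and coverage along transcripts were not analysed here, and their part in the length pattern was not tested.

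**Figure D5:**
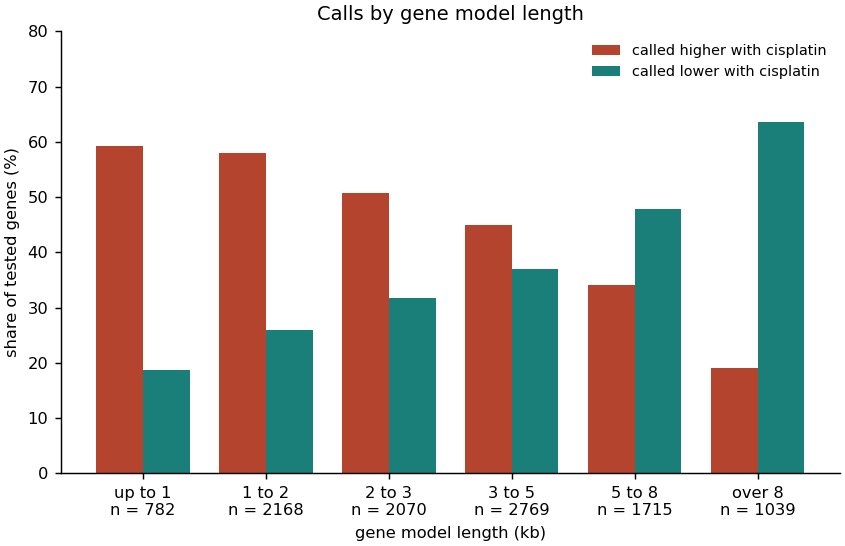
Share of tested genes called higher (red) or lower (green) with cisplatin, in percent, by the length of the gene model in kb, with the number of tested genes under each class. The share called higher falls from 59.2% to 19% and the share called lower rises from 18.7% to 63.5% from the shortest to the longest class.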

How the data were processed

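Libraries were grouped by their sample titles. The authors deposited values of 19608 genes under the name FPKM, and the values step as reads divided by gene length and library total do. The build is mm10 per the submitters' processing notes, while the labels and the gene identifiers are of rat (94.5% found in the rat assembly GRCr8), so the build is uncertain and levels are compared between libraries. Aligner, counter and strand setting were not given in the sources used here. Whole reads, recovered within 0.001 of a read for all genes, gave depth and gene model length. Genes that averaged 1 FPKM or more were fitted on log2(FPKM + 1), which understates the change of low genes, with limma 3.58.1 (mean-variance trend, the 6 libraries alone, two-sided, Benjamini-Hochberg adjustment over all tested genes, threshold 0.05). The script was tested on simulated data. The labels do not say whether replicates were separate cultures, so the p-values reflect only the spread among these libraries, possibly technical spread.

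Members and gene lists were chosen with earlier results of these data known. Lists are described by counts and medians, without a test. Named genes were the 15 largest called differences in each direction that reached 5 FPKM and did not overlap, the 5 largest shifts in share each way, up to 4 called members of a list and 2 in the opposite direction, genes near silent under 1 drug, the 5 abundant genes closest to equal and a fixed set, without predicted genes. Pou4f3, Cdh23, Otof, Slc17a8, Bbc3, S100a4, Srf, Nfkbia and LOC102547700 fall outside this rule and were chosen after their values were seen. Alternatives covered a fit of all 9 libraries, pseudocount, filter, scaling, voom, a 1.5-fold test, the replicate block, leaving out each library and gene model length. Promoter sequences are from RefSeq. Some list members are not reported here.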

Additional observations from a re-analysis of the deposited data

How the results depend on the processing

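Called differences of at least 2-fold were fewer with a pseudocount of 5 (607 in all, 398 higher and 209 lower), and more were lower after equal scaling of the library sums (1043) or with voom on recovered reads (940). A test against a 1.5-fold difference called 2677 genes, 1503 higher and 1174 lower. Genes close to equal numbered 3226 with the pseudocount of 5 and 8245 without a filter on low values. The median log2 difference was -0.07 after that scaling and 0.0 after quantile normalization or median centring. Genes expressed with cisplatin and near silent with neomycin numbered 1 at levels of 2 and 0.2 FPKM, and 4 to 8 when each library was left out in turn. Samples with the same replicate number had correlations of deviations of 0.124, 0.032 and 0.042, and those with different numbers had -0.094 to 0.051. Such weak values cannot decide whether the numbers pair the samples, and the labels do not say. With a replicate block 8716 genes were called, 4830 higher and 3886 lower. Of 305 named genes in the fit 5 changed sign under an alternative at 2 decimals, among them Trib3 and Calu, which were called neither as deposited nor where their sign changed. After quantile normalization, equal library sums and removal of the length trend (chosen after seeing the data), Sdc2 was at -0.14, -0.05 and -0.08, Psmb3 at -0.21, -0.12 and -0.25, and Rac1 at -0.06, -0.07 and -0.2, and Agpat2 was at 0.0 without the length trend. The cause was not tested. Depth limits genes near 0.1 FPKM, where 3 reads on 1 kb reach 0.0746 to 0.109 FPKM.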

Other observations

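Genes outside the roles above also differed between the drugs. The circadian repressor Nr1d1 was at 11.2 ± 0.81 FPKM with neomycin and 43.3 ± 1.76 FPKM with cisplatin (mean ± SD, n = 3). Its limma log2 difference was 1.86 (adjusted p = 2.5e-11). Of 16 tested clock genes, however, 8 (50%) were higher and 5 (31.2%) lower, beside 45.5% and 36.7% of all tested genes. After equal scaling of the library sums 5 were higher and 6 lower. Vegfa, the endothelial growth factor, had 8.07, 7.51 and 8.54 FPKM with neomycin against 33.2, 31.1 and 30.8 FPKM with cisplatin, with PBS at 16.7 to 18.5 FPKM between them. The glycolysis and hypoxia list, which holds Vegfa, had 13 of 25 tested members (52%) lower and 7 (28%) higher, and 16 and 5 after that scaling. The phosphofructokinase gene Pfkm (log2 difference -1.21) and the hexokinase gene Hk1 (-0.94) were among the lower.

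Among interferon response genes 11 of 21 (52.4%) were higher and 7 (33.3%) lower with cisplatin, beside 45.5% and 36.7% of all tested genes, and 8 and 8 after equal scaling of the library sums. The transcription factor Irf1 was at 27.2, 27.4 and 27.4 FPKM with neomycin and 96.9, 98.4 and 93.4 FPKM with cisplatin, and the DNA sensor Cgas at 3.64 ± 0.18 and 10.2 ± 0.41 FPKM. Stat2 (-0.70) and Ifit2 (-0.80) were lower. The linker histone H1f2 stood far from untreated cells under both drugs, at 49.2 to 53.3 FPKM with neomycin and 102 to 103 FPKM with cisplatin against 333 to 366 FPKM with PBS. Histone genes have near-identical copies and transcripts that mostly lack a poly(A) tail, so their levels are uncertain. Non-coding genes were higher more often than lower, 94 and 34 of 165 tested, with a median log2 difference of 0.35. Over all tested genes 45.5% were higher and 36.7% lower, with a median of 0.07.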
